A study of Mus musculus with 6 samples.

Results

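The Kruppel-like factors (KLFs) were examined in regulatory T cells (Tregs) sorted from the skin and the skin-draining lymph nodes (SDLN) of neonatal mice. The 9 genes described were Klf2, Klf3, Klf4, Klf6, Klf7, Klf9, Klf10, Klf12 and Klf13, chosen by gene symbol, and they are 9 of the 17 Klf genes among 49315 genes in the count table. KLFs are transcription factors that bind GC-rich and CACCC-type DNA through zinc fingers at the end of the protein, and outside the fingers they differ in the partners they recruit. In T cells Klf2 is known for keeping resting cells in circulation through homing genes such as S1pr1, Klf10 is a gene induced by TGF-beta, and Klf13 is known for driving Ccl5. Klf4 and Klf6 respond to stress and are also prominent in macrophages and monocytes, Klf9 is induced by glucocorticoids, and Klf3 and Klf12 act mainly as repressors through CtBP.

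Both groups came from mice of genotype Foxp3-GFP, a reporter on the C57BL/6J background in which cells that transcribe Foxp3 carry EGFP, at 9 days of age, with no treatment or further allele named. All 6 samples carry the same batch number in the labels. Each group had 3 libraries, called A, B and C, and each library held cells of 3 biological replicates pooled, so the spread between libraries is a spread between pools. The sort took live CD45+ CD4+ EGFP+ cells after enrichment on CD45 beads. Skin was minced and digested with collagenase, hyaluronidase and DNase at a warm temperature, a step that the study describes for skin, whereas lymph nodes were mashed through a filter. Group, dissociation and depth therefore cannot be told apart in these samples.

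The skin libraries were shallow, with 3748669 to 11741784 counted reads against 47243498 to 116158706 in SDLN, and fewer genes were detected in them. On the scale of counts per library total (CPM), 2911, 5317 and 4540 genes reached 1 CPM in skin A, B and C, against 12397 to 13002 in SDLN. The label of 2 skin libraries was not borne out by the defining Treg gene: Foxp3 counts were 0, 330 and 1 in skin A, B and C and 1788 to 12208 in SDLN, and Cd4 counts were 0, 1861 and 2. Among the 12 Treg and T cell genes, 7 had all 3 skin libraries below all 3 SDLN libraries, near the 53.6% of all genes tested. None of the 12 was lower by edgeR's test. Cd3e and Cd5 were at 0 in skin A, whereas Il2ra, Ctla4 and Cd2 were at 534 CPM or more in every skin library. By edgeR's test 1.04% of all genes tested were higher in skin and 45.3% were lower (adjusted p under 0.05). Of 19 myeloid markers that could be tested, skin was higher for 16 and lower for 1, Itgam, and the summed CPM of all 20 was 35492 to 62020 in skin and 713 to 997 in SDLN. Ctla4 was higher in skin, and of 5 B cell genes tested 4 were lower. None of 2 fibroblast genes and 1 endothelial gene tested passed the threshold, and of the keratinocyte genes Krt5, Krt14, Krt15 and Trp63 were at 0 in all 6 libraries, while Krt10 was lower in skin.

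The 9 members share a run of 3 zinc fingers near the end of the coding sequence, and these stretches are shown because all the members code for them. Read from the GENCODE M21 transcripts, each finger run was 243 bases long, with 12 codons for the cysteines and histidines that hold the zinc, given in capitals. The members with higher levels in skin, Klf4 and Klf6, are printed beside their nearest relatives in sequence, Klf2 and Klf7.
Klf4: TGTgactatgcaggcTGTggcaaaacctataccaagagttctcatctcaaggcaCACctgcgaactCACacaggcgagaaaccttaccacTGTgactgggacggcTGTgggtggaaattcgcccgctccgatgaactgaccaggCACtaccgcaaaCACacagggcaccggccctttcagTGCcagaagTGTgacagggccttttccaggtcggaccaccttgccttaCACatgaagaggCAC
Klf2: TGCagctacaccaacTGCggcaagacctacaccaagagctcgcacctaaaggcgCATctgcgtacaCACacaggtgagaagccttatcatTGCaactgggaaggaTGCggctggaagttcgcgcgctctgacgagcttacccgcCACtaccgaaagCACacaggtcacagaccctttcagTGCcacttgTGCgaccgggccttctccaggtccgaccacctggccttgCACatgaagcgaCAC
Klf6: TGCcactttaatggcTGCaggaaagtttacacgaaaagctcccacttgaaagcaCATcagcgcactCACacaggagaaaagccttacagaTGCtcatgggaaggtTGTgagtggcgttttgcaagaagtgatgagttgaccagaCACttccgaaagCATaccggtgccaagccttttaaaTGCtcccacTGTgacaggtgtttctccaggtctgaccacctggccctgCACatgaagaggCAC
Klf7: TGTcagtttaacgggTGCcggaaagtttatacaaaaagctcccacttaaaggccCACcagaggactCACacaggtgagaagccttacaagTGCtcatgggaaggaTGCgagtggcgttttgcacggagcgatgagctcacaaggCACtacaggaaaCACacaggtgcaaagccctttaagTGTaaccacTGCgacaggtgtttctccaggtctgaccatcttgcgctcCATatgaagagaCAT
Klf6 and Klf7 were identical at 81.1% of these bases and Klf4 and Klf2 at 78.2%, whereas Klf4 and Klf6 were identical at 68.7%. Over the 36 pairs of members, identity ran from 57.2% to 81.1%. The longest stretch that any pair of members shared anywhere in their transcripts was 41 bases, outside the fingers (Klf3 and Klf12), well under the 150-base reads. In the fingers of Klf6 and Klf7 it was 26 bases, gacaggtgtttctccaggtctgacca. Klf3 shared 404 exon bases and Klf7 shared 3200 exon bases with transcripts on the opposite strand, and the source used here does not say whether strand was counted. Those antisense genes held few reads, with 115, 25 and 19 for the partner of Klf3 in SDLN A, B and C, and 0 in skin. These counts do not show whether reads in the shared bases were left out of Klf3 and Klf7.

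Promoters are shown for Klf4 and Klf6, the pair that was higher in skin, and for Klf2, whose regulators are described with it. Each is the 250 bases before the start site in RefSeq on GRCm38.p6, written in the direction of the gene, and capitals mark GC boxes (GGGCGG), boxes of the letters CACCC and MEF2 sites, on either strand.
Klf4, chr4:55532476-55532725, minus strand: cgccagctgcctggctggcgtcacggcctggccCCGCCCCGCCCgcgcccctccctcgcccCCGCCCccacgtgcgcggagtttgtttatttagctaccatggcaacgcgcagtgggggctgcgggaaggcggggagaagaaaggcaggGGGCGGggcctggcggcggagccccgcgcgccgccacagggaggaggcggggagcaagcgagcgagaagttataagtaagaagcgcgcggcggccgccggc
Klf6, chr13:5861239-5861488, plus strand: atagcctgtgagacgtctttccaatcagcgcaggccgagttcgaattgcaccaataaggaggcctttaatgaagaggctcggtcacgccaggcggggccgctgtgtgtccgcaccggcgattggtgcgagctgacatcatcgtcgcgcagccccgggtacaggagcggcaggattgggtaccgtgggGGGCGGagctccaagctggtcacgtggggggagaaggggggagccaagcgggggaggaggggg
Klf2, chr8:72318812-72319061, plus strand: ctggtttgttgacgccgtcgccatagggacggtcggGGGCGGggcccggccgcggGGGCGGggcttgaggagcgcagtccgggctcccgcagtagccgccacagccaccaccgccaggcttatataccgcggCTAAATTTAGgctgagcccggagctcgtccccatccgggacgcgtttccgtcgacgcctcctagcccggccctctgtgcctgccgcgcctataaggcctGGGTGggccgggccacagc
The Klf4 window held 4 GC boxes, of which the first and the next overlap by a base, the Klf6 window held 1 and the Klf2 window held 2. A GC box was present in 32.7% of 32851 promoter windows of the same length, and in 6 of the 8 members with an entry. A CACCC box, present in 52% of all windows, was found in the Klf2 window and in neither of the others. The Klf2 window was the only member window with a match to the MEF2 site, which 2.92% of all windows held, and the Klf6 window held 4 CCAAT boxes, a motif in 33.8% of windows. None of the 8 windows held an AP-1 site (TGACTCA), present in 4.46% of all.

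Between the groups, 2 of the 9 members were higher and 2 were lower in skin Tregs. All 9 passed the filter on low counts. With edgeR's quasi-likelihood test and an adjusted p under 0.05, 1.04% of the 13572 genes tested were higher in skin and 45.3% were lower, so the 2 lower members were no more than the background share and the 2 higher members were above it. By library values alone, 2 members had all 3 skin libraries above all 3 SDLN libraries, against 2.39% of genes, and 2 had all 3 below, against 53.6%. The median log2 fold change was -0.13 over the members and -2.21 over all genes tested, or -1.29 when the 5878 genes that no skin library measured above 3 counts were set to the bound those counts allow. In a bulk library, fewer cells of a type that expresses a gene and less RNA per cell cannot be told apart, and the p-values measure the spread between these pooled samples.

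**Figure D1:**
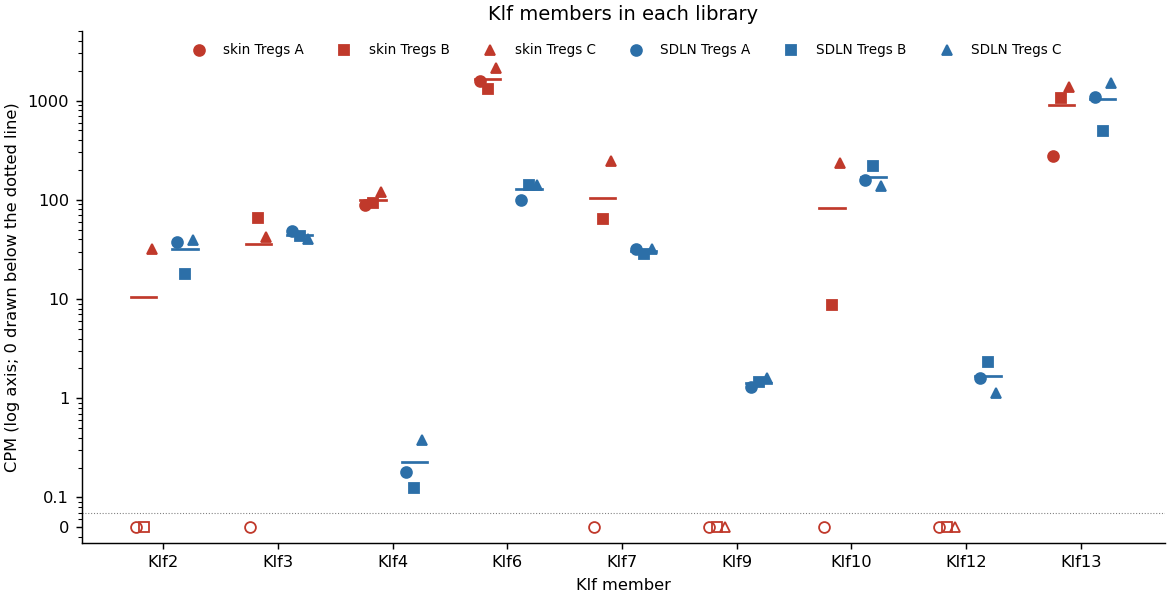
CPM of each Klf member in the 6 libraries on a log axis, with skin Tregs in red, SDLN Tregs in blue, a marker shape per library letter, short lines at group means and open symbols for libraries at 0. Klf4 and Klf6 are the members whose red points all lie above the blue ones, and Klf9 and Klf12 are at 0 in all 3 skin libraries.

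Klf4, a zinc finger activator and repressor best known from stem cells, epithelia and monocytes, had the largest ratio between the groups among the 7 members detected in both. Its level was 87.8, 93.9 and 120 CPM in skin A, B and C and 0.181, 0.124 and 0.381 CPM in SDLN A, B and C. The groups did not overlap, the 3 skin libraries lay within 1.5-fold of each other, and the SDLN values rested on 21, 9 and 18 reads. The means were 100.5 ± 17.1 CPM for skin Tregs against 0.228 ± 0.135 CPM for SDLN Tregs (SD, 3 libraries each), a ratio of 440. The edgeR log2 fold change was 8.77 (SE 1.68, adjusted p = 0.00718). Without SDLN A the adjusted p of edgeR's test was 0.0811 and without SDLN B it was 0.0656, so the call needed both of these libraries, while the fold change kept its size at 8.62 and 8.48.

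Klf6, an immediate-early KLF expressed in most tissues, was the most abundant member in skin. It measured 1570, 1297 and 2121 CPM in skin A, B and C, resting on 5885, 15231 and 19159 reads. In SDLN it measured 100, 141 and 142 CPM. The lowest skin library was far above the highest SDLN library, and the groups did not overlap. Skin Tregs averaged 1663 ± 420 CPM and SDLN Tregs 128 ± 23.5 CPM (SD, 3 libraries each), a ratio of 13.0, with an edgeR log2 fold change of 3.74 (SE 0.490, adjusted p = 0.00326). Klf6 stayed past the threshold whichever of the 6 libraries was left out, but not with upper quartile scaling, where its log2 fold change was 10.06 (edgeR, adjusted p = 0.0661).

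In skin library B, the skin library with Foxp3 and Cd4 reads, Klf4 (93.9 CPM) and Klf6 (1297 CPM) were each above all 3 SDLN libraries. Skin B held myeloid reads too, with a summed CPM of 39176 over the 20 myeloid markers, against 713 to 997 in SDLN. Set alone against SDLN, this library gave edgeR log2 fold changes of 8.78 for Klf4 and 3.40 for Klf6. A single library holds nothing of the spread among skin libraries, so these values are a description and no test of the skin group.

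Digestion response genes, a list of stress genes (Fos, Jun, heat shock proteins and others) known to rise while tissue is digested, were higher in skin for 9 of 22 tested and lower for 1, Egr3, beside 1.04% and 45.3% of all genes tested. Their summed CPM was 38967, 22598 and 14655 in skin A, B and C and 4605 to 4882 in SDLN. Fos and Hspa1a, defining genes of that response, were among the 9, and Hspa1a was at 1, 0 and 0 reads in SDLN A, B and C. Between the groups, the sums of myeloid and of digestion response genes moved with Klf4 and Klf6. Within skin, Klf4 measured 87.8, 93.9 and 120 CPM in A, B and C, while the myeloid sum was 62020, 39176 and 35492. The digestion sum fell in the same order, and Klf6 was lowest in skin B and highest in skin C. The part of either sum in the difference between the groups was not tested.

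Set against the myeloid sum, Klf4 measured 1.42, 2.40 and 3.38 CPM per 1000 myeloid CPM in skin A, B and C. In SDLN A, B and C the values were 0.235, 0.173 and 0.382. On this scale each skin library was above each SDLN library. Klf6 measured 25.3, 33.1 and 59.8 CPM per 1000 myeloid CPM in skin and 130, 197 and 142 in SDLN, the opposite order. Per 1000 CPM of digestion response genes Klf6 measured 40.3, 57.4 and 145 in skin and 21.2, 30.5 and 29.0 in SDLN, and the skin libraries were again the higher ones. Klf4 against the same sum was 2.25, 4.15 and 8.18 in skin and 0.0381, 0.0268 and 0.0780 in SDLN.

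**Figure D2:**
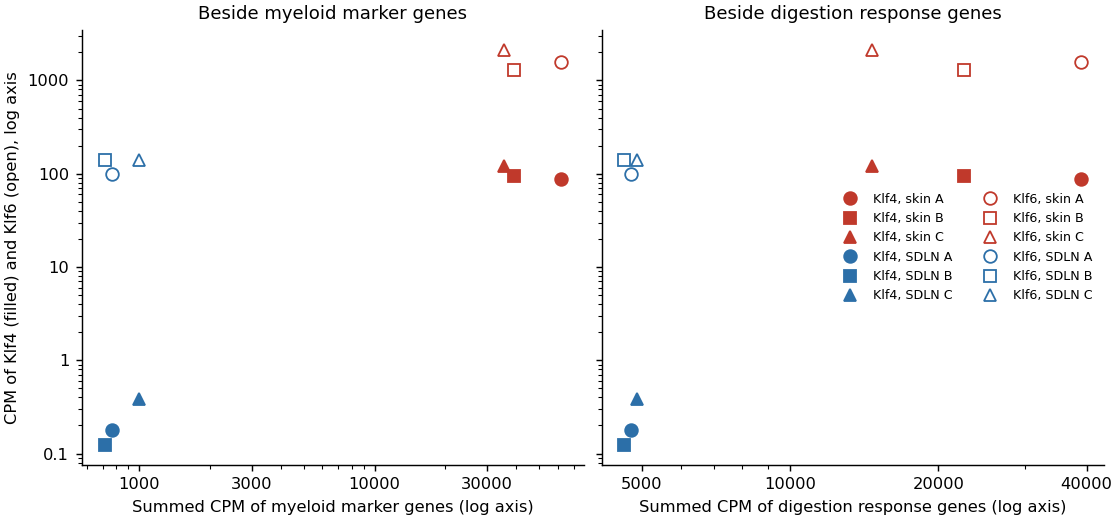
CPM of Klf4 (filled) and Klf6 (open) in each library against the summed CPM of the myeloid marker genes (left) and of the digestion response genes (right), all on log axes, with skin Tregs in red and SDLN Tregs in blue. For each gene the skin libraries sit above and to the right of the SDLN libraries in both panels. On the vertical axis only, Klf6 in SDLN (100 to 142 CPM) lies near Klf4 in skin.

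Profiles over the 6 libraries were compared with those of genes that had a mean of at least 10 CPM in both groups. Klf4 itself was under that limit in SDLN, and other genes near absent in SDLN were not candidates. Among the candidates, the genes nearest to Klf4 were Cd74, Dusp1 and Lyz2, by the mean absolute difference of centred log2(CPM + 1) values. Their distances were 0.42, 0.55 and 0.58, where the median over 5225 candidate genes was 4.31. Cd74 is the invariant chain of antigen presentation, Lyz2 is a lysozyme of myeloid cells and Dusp1 is a stress-induced phosphatase. Cd74 measured 26833, 17637 and 18402 CPM in skin A, B and C and 296 to 599 CPM in SDLN. The nearest to Klf6 were Tgif1, Ifrd1 and Crip2 at 0.22, 0.30 and 0.36, with a median over candidates of 3.17. Tgif1, a homeobox repressor of TGF-beta signalling, measured 593, 334 and 791 CPM in skin and 42.4, 62.4 and 45.0 CPM in SDLN. These are descriptions of likeness over 6 libraries that share their depth and group, and no test was made of them.

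Klf2 was detected in a single skin library. It measured 0, 0 and 31.8 CPM in skin A, B and C and 37.7, 17.8 and 39.2 CPM in SDLN. Skin C, with 287 reads, fell inside the SDLN range, so the groups overlapped. Group means were 10.6 ± 18.3 CPM for skin and 31.6 ± 12 CPM for SDLN (SD, 3 libraries each). The threshold was not passed, with an edgeR log2 fold change of -1.27 (SE 2.59, adjusted p = 0.855). At the mean SDLN level, 118 reads would have been counted in skin A and 371 in skin B. A count of 0 allows up to 0.800 CPM in skin A and 0.255 CPM in skin B, counting error only. Such zeros were common at this level: of 2341 other genes within 1.5-fold of Klf2 in SDLN, 84.9% had 3 counts or fewer in skin A and 63% in skin B, and 43.5% did in all 3 skin libraries. Skin C decided the result, since without it Klf2 passed the threshold as lower (edgeR, adjusted p = 0.00464).

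Lymphoid homing genes were set beside Klf2. S1pr1, a target of Klf2 and the receptor for exit from lymph nodes, measured 18.9, 268 and 0 CPM in skin A, B and C and 401, 496 and 334 CPM in SDLN. Every skin library was below every SDLN library for S1pr1, but it did not pass the threshold (log2 fold change -2.06, SE 2.28, edgeR adjusted p = 0.646). Ccr7, the receptor that draws T cells into lymph nodes, measured 229, 204 and 0.111 CPM in skin and 232, 210 and 230 CPM in SDLN, and it did not pass the threshold either (edgeR, adjusted p = 0.866). Skin A and B were close to SDLN in Ccr7, and skin C, the library with Klf2 reads, held 1 read of it.

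Among 7 genes upstream of Klf2, 4 were lower in skin and none was higher. They were the kinase Mapk7 and the MEF2 factors Mef2a, Mef2c and Mef2d, which belong to the route through which Klf2 is classically induced. Map2k5, the kinase that activates Mapk7 in that route, measured 0, 0.255 and 132 CPM in skin A, B and C and 30.4, 28.1 and 23.2 CPM in SDLN, and it did not pass the threshold (log2 fold change 1.03, SE 2.66, edgeR adjusted p = 0.897). Mef2d measured 0, 0 and 0.332 CPM in skin A, B and C and 26.3, 35 and 22.8 CPM in SDLN. Mapk7 had 0, 1 and 0 reads in skin and measured 33.9, 39.2 and 16.8 CPM in SDLN. Foxo1, another activator of Klf2, measured 0, 4.09 and 240 CPM in skin and 93.4, 83.3 and 85.8 CPM in SDLN. Among the skin libraries, both Foxo1 and Klf2 were highest in skin C, where Foxo1 was above SDLN and Klf2 was within the SDLN range. The share of 4 in 7 stands beside 45.3% of all genes tested.

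Klf10 and Klf7 varied more among the skin libraries than between the groups. Klf10, also called TIEG1, measured 0, 8.77 and 237 CPM in skin A, B and C and 159, 218 and 137 CPM in SDLN. Skin C was above every SDLN library and skin A and B were below them. The edgeR log2 fold change was -0.72 (SE 2.33, adjusted p = 0.923). Klf7 measured 0, 64.2 and 248 CPM in skin and 31.6, 28.2 and 32.2 CPM in SDLN, so skin B and C were above all SDLN libraries and skin A was below. Its edgeR log2 fold change was 2.04 (SE 2.37, adjusted p = 0.668).

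Of the 6 genes of the TGF-beta loop that induces Klf10, 2 were lower in skin and none was higher, no more than the 45.3% and 1.04% of all genes tested. Smad7, the inhibitory Smad that Klf10 represses, had 0, 1 and 2 reads in skin A, B and C and measured 31.5, 23.4 and 34.8 CPM in SDLN (edgeR, adjusted p = 0.00446). Tgfb1, the ligand, measured 0.267, 0.596 and 1.11 CPM in skin and 4.02, 10.7 and 4.47 CPM in SDLN (edgeR log2 fold change -3.07, SE 0.772, adjusted p = 0.0196). Both genes had all skin libraries below all SDLN libraries. The receptor Tgfbr1 overlapped between the groups.

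Klf3, the founding CtBP-binding repressor of the family, and Klf13 had similar group means. Klf3 measured 0, 65.7 and 42.2 CPM in skin A, B and C and 48.8, 43.4 and 40.7 CPM in SDLN. Apart from skin A, the libraries lay within 40.7 to 65.7 CPM. The edgeR log2 fold change was -0.13 (SE 2.08, adjusted p = 0.987). Klf13 measured 275, 1065 and 1370 CPM in skin and 1086, 498 and 1511 CPM in SDLN, with a log2 fold change of -0.07 (SE 0.857, edgeR adjusted p = 0.983). Klf13 had 1032 reads in its lowest library, skin A, and its groups overlapped.

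Klf9 and Klf12 had no read in any skin library. Klf9 measured 1.29, 1.44 and 1.59 CPM in SDLN A, B and C, on 150, 105 and 75 reads. Klf12 measured 1.59, 2.34 and 1.14 CPM in SDLN, on 185, 170 and 54 reads. Against a floor of 3 counts per skin library, a mean of 0.463 CPM, Klf9 was at least 3.11-fold lower and Klf12 at least 3.65-fold lower in skin. Both passed edgeR's test, with adjusted p = 0.00373 for Klf9 and 0.00498 for Klf12. The fitted fold changes of genes at 0 depend on the prior count and are not given. At the SDLN level 5.40, 16.9 and 13.0 reads of Klf9 would have been counted in skin A, B and C. For Klf12 the numbers were 6.34, 19.8 and 15.3. Of the other genes within 1.5-fold of Klf9 in SDLN, 74.4% had 3 counts or fewer in all 3 skin libraries, and the share was 73.5% for Klf12.

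Klf9 was set beside other glucocorticoid response genes, of which 1 in 4 tested was higher in skin and none was lower, beside 1.04% and 45.3% of all genes tested. That gene was Tsc22d3, which encodes GILZ, at 557, 263 and 546 CPM in skin A, B and C and 127, 121 and 106 CPM in SDLN. Its groups did not overlap (edgeR log2 fold change 1.93, SE 0.621, adjusted p = 0.0466). Klf9 and Tsc22d3 thus differed in direction, Klf9 having no read in the same 3 libraries. Fkbp5, a feedback inhibitor of the glucocorticoid receptor, measured 0, 0 and 1.99 CPM in skin and 35.4, 30.7 and 43.9 CPM in SDLN and did not pass the threshold (adjusted p = 0.116, edgeR).

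**Figure D3:**
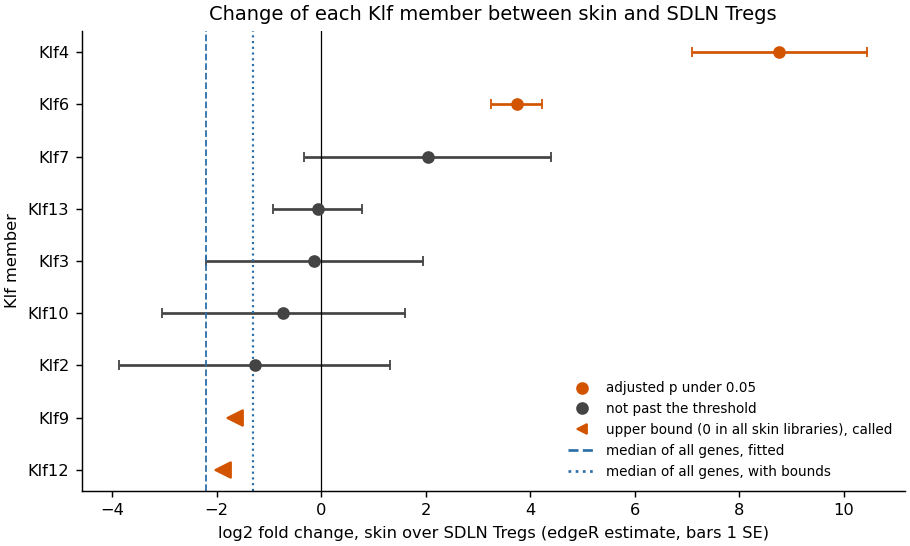
Log2 fold change of each member, skin over SDLN Tregs, as edgeR estimates with bars of 1 SE, and as upper bounds (triangles) for Klf9 and Klf12, which had no read in skin. Orange marks members with an adjusted p under 0.05, and the blue lines give the median of all genes tested, fitted at -2.21 (dashed) and -1.29 with bounds (dotted).

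The make-up of the family within a library does not depend on any scaling between libraries. Of the reads on the 9 members, Klf6 took 81.2%, 50.0% and 50.9% in skin A, B and C, whereas its share was 6.85%, 14.8% and 7.43% in SDLN. The lowest skin share was above the highest SDLN share. Klf13 took 29.4 ± 13.7% of skin reads and 68.6 ± 14.2% of SDLN reads (SD, 3 libraries each), again without overlap. Klf4 took 3.68 ± 0.835% in skin and 0.0151 ± 0.00425% in SDLN. Klf10 took 0% to 5.69% in skin and 7.18% to 22.9% in SDLN. With 3 libraries against 3, the smallest p that an exact two-sided permutation test can give is 0.10, so no such test was made of these shares. The ratio of Klf6 to Klf13 reads was 5.70, 1.22 and 1.55 in skin and 0.0924, 0.282 and 0.0937 in SDLN, so Klf6 led in every skin library and Klf13 in every SDLN library. The summed CPM of the 9 members was 1933, 2594 and 4171 in skin and 1466, 950 and 1904 in SDLN, and all 3 skin libraries lay above all SDLN libraries, skin A by a small margin over SDLN C.

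**Figure D4:**
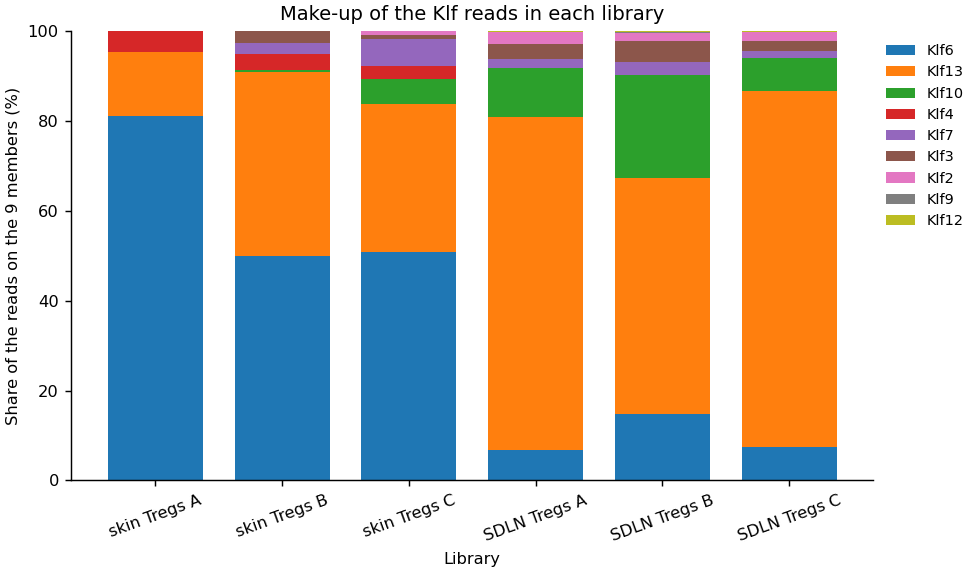
Share of the reads on the 9 Klf members that fell on each member, in percent, for the 3 skin and the 3 SDLN Treg libraries. Klf6 (blue, at the base) fills 50.0% to 81.2% of the skin bars and 6.85% to 14.8% of the SDLN bars, where Klf13 (orange) fills 52.5% to 79.3%.

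Per kilobase of merged exons, the scale on which genes can be compared, the order of the members differed between the groups. In skin Tregs Klf6 was first at 379 ± 95.6 CPM per kb, above Klf13 at 120 ± 75.0, in 3 of 3 libraries. Klf4 followed at 33.0 ± 5.60 CPM per kb, and its range overlapped that of Klf13. Klf10, Klf7, Klf2 and Klf3 came next at means of 19.6 down to 3.20 CPM per kb, each with a range that overlapped its neighbour and reached 0 in skin A. In SDLN Tregs Klf13 was first at 137 ± 67.5 CPM per kb, followed by Klf10 at 40.9 ± 10.01, Klf6 at 29.0 ± 5.36 and Klf2 at 17.1 ± 6.49, each above the next in 3 of 3 libraries. Klf3 and Klf7 did not differ beyond their spread in SDLN, at 3.94 ± 0.366 and 3.77 ± 0.265 CPM per kb, and neither did Klf9 and Klf12, at 0.299 ± 0.0308 and 0.242 ± 0.0862. Klf4 was last in SDLN at 0.0749 ± 0.0443 CPM per kb. Errors are SD with n = 3.

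The cofactors and ligases of KLF proteins gave no gene higher in skin, where 1.04% of all genes were. Of 10 corepressors and coactivators, 4 were lower, near the 45.3% of all genes tested, namely Sin3b, Hdac2, Ep300 and Kat2b. CtBP genes, whose products bind Klf3 and Klf12, did not pass the threshold: Ctbp1 measured 0, 0.170 and 223 CPM in skin A, B and C and 63.8, 29.3 and 65.1 CPM in SDLN. Crebbp, a coactivator of many KLFs, measured 0, 678 and 1001 CPM in skin and 426, 325 and 499 CPM in SDLN, so its groups overlapped. Of 4 ubiquitin ligases that act on KLF proteins, Smurf1 and Fbxw7 were lower, again near that share. Fbxw7 had 0, 0 and 1 reads in skin A, B and C and measured 24.1, 21.8 and 18.4 CPM in SDLN (edgeR, adjusted p = 0.00377).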

How the data were processed

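RNA-seq of sorted Tregs gave 3 skin and 3 SDLN libraries. The deposited values were raw read counts per gene. To make them, the authors trimmed paired 150-base reads with Trimmomatic 0.36, aligned them to GRCm38 with STAR 2.5.2b and counted them with featureCounts of Subread 1.5.2. The annotation release, strand setting and duplicate handling are not given in the sources used here, and no molecular identifiers were named, so reads are not independent molecules and the floors of 3 counts cover counting error only. Columns carried group and letter, and groups were taken from sample titles, since the tissue field named skin for every sample. Identifiers were matched to GENCODE M21 symbols, for 48970 of 49315 genes.

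CPM was computed on library totals. Skin and SDLN were compared with edgeR 4.0.16 in R 4.3.3 (TMM, filterByExpr, quasi-likelihood test, Benjamini-Hochberg adjustment over 13572 genes, threshold 0.05), and the code was tested on simulated data. The 16 alternatives included DESeq2 1.42.0 and limma 3.58.1. All 9 members are named, with genes of fixed lists and the 3 nearest profiles of Klf2, Klf4 and Klf6. Members and lists were chosen with earlier results of these data known.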

Additional observations from a re-analysis of the deposited data

How the results depend on the processing

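The count of members higher in skin was 2 and fell to 1 with upper quartile scaling and with at least 10 counts required in every library, where only Klf6 and Klf13 could be tested. In these fits 1.24% and 5.8% of genes tested were higher. Leaving out 1 library at a time gave 1 to 2 higher members (1 without SDLN A or SDLN B) and 2 to 3 lower members (3 without skin C, by Klf2). Over those fits 0.564% to 2.04% of all genes tested were higher and 40.1% to 48.9% were lower. The count lower, 2 at first, was 0 with at least 10 counts everywhere, a filter under which 0.645% of 1396 genes were lower. It was 1 with libraries drawn down to the smallest, where Klf9 was not tested and 33% of genes were lower. Skin B alone was also set against SDLN, a choice made after seeing the data. The 3 highest log2 fold changes were then 8.78 (Klf4), 3.40 (Klf6) and 1.11 (Klf7). The 4 members with negative log2 fold changes were Klf2, Klf9, Klf10 and Klf12, beside a median of -7.14 over all genes tested in this fit. Klf10 was at -4.22, and Klf2, Klf9 and Klf12 had no read in skin B. The spread in this fit came from SDLN only, which says nothing about the spread of skin, so its calls are not given. Log2 fold changes that turned direction, none past the threshold, were Klf3 at 0.46 (upper quartile), 0.27 (without skin A) and 0.62 (skin B alone), Klf10 at 0.13 (upper quartile), Klf13 at 4.56 (upper quartile), 0.26 (without skin A), 0.22 (without SDLN C) and 0.058 (skin B alone), and Klf7 at -0.69 (limma voom). Over leaving out 1 library at a time, Klf3 ran from -0.74 to 0.27, Klf13 from -0.77 to 0.26, Klf10 from -5.34 to -0.18 and Klf7 from 0.0086 to 2.39, with -5.34 for Klf10 and 0.0086 for Klf7 both without skin C. Among 1623 genes with more than 3 counts in all 6 libraries, upper quartile scaling raised the median log2 fold change from 0.28 to 6.82, and with it the log2 fold change of Klf6 was 10.06 (edgeR, adjusted p = 0.0661). Klf4 was called in 13 of 15 alternatives, Klf6 in 15 of 16, Klf9 in 14 of 14 and Klf12 in 15 of 15, each in its first direction. Causes were not tested. Nothing links the letters of the count columns to the replicate numbers in the titles, so the letters were tried as a replicate block after seeing the data. With that block 1 member was higher (Klf6) and 2 were lower (Klf9 and Klf12), beside 0.449% and 41.5% of all genes tested. Klf4 then had a log2 fold change of 8.86 (SE 4.72, edgeR adjusted p = 0.128). Same-lettered libraries deviated together little, with correlations across genes of 0.0460, -0.0100 and 0.0914 for A, B and C, so the letters are not taken to pair the samples. Of the 9 members, 3, 6 and 7 had more than 3 counts in skin A, B and C. At the mean SDLN level, skin A would have counted 118 reads of Klf2, 166 of Klf3, 115 of Klf7 and 641 of Klf10. The numbers were 5.40 for Klf9 and 6.34 for Klf12, and skin A held no read of any of these genes. The part of depth in this was not tested.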

Other observations

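Of the other 8 Klf genes, 5 had 3 counts or fewer in all 6 libraries. Klf1, Klf5, Klf15 and Klf17 had no read in any of the 6 libraries, and Klf14 had 1 read in all. Klf8, the X-linked relative of Klf3 and Klf12, had no read in skin and measured 3.25, 2.76 and 0.677 CPM in SDLN A, B and C. It was lower in skin by edgeR's test (adjusted p = 0.0177), the direction of 45.3% of genes. Klf16 measured 0, 14.6 and 41.7 CPM in skin A, B and C and 10.3, 8.15 and 15.9 CPM in SDLN. It did not pass the threshold (edgeR, adjusted p = 0.842). Klf11, the nearest relative of Klf10 outside the 9, measured 0, 0.0852 and 354 CPM in skin A, B and C and 12.9, 13.8 and 11.5 CPM in SDLN. Skin C alone carried its skin signal, as it did for Klf2 and most of that for Klf10.

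The Sp family, which binds the same GC boxes as the KLFs, had 5 of 9 genes tested, of which Sp6 was lower in skin and none was higher, no more than the 45.3% and 1.04% of all genes tested. Sp1 measured 0, 154 and 92.9 CPM in skin A, B and C and 53.1, 49.4 and 36.8 CPM in SDLN. Sp4 measured 0, 0 and 246 CPM in skin and 30.8, 49.5 and 21.4 CPM in SDLN. Sp8 had 1184 reads in skin C, which is 131 CPM, and at most 1 read in any other library, and was not tested.

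The genes whose profile was nearest to that of Klf2 were Med16, Drc1 and Rnf166, at distances of 0.12, 0.17 and 0.17. Each was at 0 in skin A and B, and Med16 measured 30.4 CPM in skin C and 22.3 to 41.6 CPM in SDLN.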
